A study of Mus musculus with 6 samples.

Results

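The genes described here act at the branch where pyruvate, the end product of glycolysis, is either reduced to lactate in the cytosol or carried into mitochondria and oxidized. They are 10 of the 54532 genes in the raw count table, chosen by their symbols: the lactate dehydrogenase genes *Ldha* and *Ldhb*, the pyruvate dehydrogenase (PDH) genes *Pdha1* and *Pdhb*, the PDH kinase genes *Pdk1*, *Pdk2*, *Pdk3* and *Pdk4*, and the mitochondrial pyruvate carrier genes *Mpc1* and *Mpc2*. All 10 were among the 19372 genes with enough counts to be tested.

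RNA of whole hearts from mouse embryos at embryonic day 9.5 (E9.5) was sequenced. There were 3 libraries of embryos in which both *Smyd1* alleles carried a mutation (*Smyd1-KO*) and 3 of wild-type embryos (WT). Each library is called a heart here, but the labels do not state how many hearts went into it. The embryos came from crosses between *Smyd1* heterozygotes, no treatment was given, and both sexes were used. *Smyd1* encodes a histone methyltransferase of striated muscle, and embryos without it die at mid-gestation with heart defects. The allele is mutated in every cell of the embryo rather than in one cell type, and each heart holds cardiomyocytes together with other cells.

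Lactate dehydrogenase interconverts pyruvate and lactate and regenerates the NAD+ that glycolysis uses. Pyruvate that enters the mitochondrion through its carrier is converted to acetyl-CoA by the PDH complex, which PDH kinases switch off by phosphorylation and PDH phosphatases switch on again. The embryonic heart at this stage relies largely on glycolysis, and oxidative metabolism gains weight as mitochondria mature.

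Total counts ran from 48627825 to 64217529 per heart. *Smyd1* had 101, 222 and 206 CPM (counts scaled to library size) in the *Smyd1-KO* hearts and 414, 379 and 270 CPM in the WT hearts, in the order of replicates 1 to 3. The groups did not overlap, and the log2 fold change was -1.01 (SE 0.300), but its adjusted *P* of 0.0973 in edgeR's quasi-likelihood test missed the threshold. DESeq2 gave -1.0 with an adjusted *P* of 0.00534. *Smyd1* RNA was present in the library of each mutant heart, and counts per gene do not show which exons it came from. Summed CPM of 10 cardiomyocyte markers ran from 8429 to 17478 in *Smyd1-KO* and from 10921 to 18682 in WT, with *Smyd1-KO* heart 1 and WT heart 3 lowest in their groups. Of these 10 markers, 0 were called, and 8 log2 fold changes were negative and 2 positive. They ran from -0.71 for *Myh6*, whose groups did not overlap, to 1.44 for *Nppa*. Summed erythroid markers were lower in every *Smyd1-KO* heart (28.1 to 282 CPM) than in any WT heart (748 to 998 CPM). *Xist* was low and Y-linked genes were present in *Smyd1-KO* heart 1 and WT heart 1, so each genotype had 1 male and 2 female hearts.

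The promoters of *Ldha*, *Pdk1* and *Pdk2* are shown because the first pair rose in the mutant and *Pdk2* is a kinase gene whose test was far from the threshold. Each line holds the 250 bases before a RefSeq transcript start (GRCm38.p6). RefSeq gives 2 starts for each of these genes, and both windows are shown for *Ldha* (plus strand, window 1 at chr7:46845554-46845803 and window 2 at chr7:46846832-46847081) and *Pdk2* (minus strand, window 1 at chr11:95040876-95041125 and window 2 at chr11:95041372-95041621). For *Pdk1* (plus strand) only window 1 at chr2:71872974-71873223 is shown, since all 250 bases of its window 2 were exonic. Capitals mark ACGTG or GCGTG, the core recognized by hypoxia-inducible factors, and CACGTG, an E-box, on either strand.
Ldha window 1: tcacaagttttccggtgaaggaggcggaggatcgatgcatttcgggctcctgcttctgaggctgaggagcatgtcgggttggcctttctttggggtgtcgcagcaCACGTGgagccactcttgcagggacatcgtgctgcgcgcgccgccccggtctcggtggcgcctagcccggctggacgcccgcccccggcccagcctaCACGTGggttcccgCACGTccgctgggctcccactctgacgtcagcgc
Ldha window 2: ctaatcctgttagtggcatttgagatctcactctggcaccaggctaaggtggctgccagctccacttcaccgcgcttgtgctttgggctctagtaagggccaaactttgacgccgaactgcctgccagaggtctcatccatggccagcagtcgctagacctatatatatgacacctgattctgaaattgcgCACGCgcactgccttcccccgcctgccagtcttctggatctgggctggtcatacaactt
Pdk1 window 1: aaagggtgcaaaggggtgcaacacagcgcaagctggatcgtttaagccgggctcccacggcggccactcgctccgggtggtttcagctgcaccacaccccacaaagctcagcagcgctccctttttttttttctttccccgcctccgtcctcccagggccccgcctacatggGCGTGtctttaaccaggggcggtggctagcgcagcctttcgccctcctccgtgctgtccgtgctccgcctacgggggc
Pdk2 window 1: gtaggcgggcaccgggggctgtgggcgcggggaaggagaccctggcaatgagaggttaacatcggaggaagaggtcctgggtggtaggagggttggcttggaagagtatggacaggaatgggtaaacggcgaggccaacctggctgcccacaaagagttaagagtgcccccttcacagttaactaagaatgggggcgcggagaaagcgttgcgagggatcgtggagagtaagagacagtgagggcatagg
Pdk2 window 2: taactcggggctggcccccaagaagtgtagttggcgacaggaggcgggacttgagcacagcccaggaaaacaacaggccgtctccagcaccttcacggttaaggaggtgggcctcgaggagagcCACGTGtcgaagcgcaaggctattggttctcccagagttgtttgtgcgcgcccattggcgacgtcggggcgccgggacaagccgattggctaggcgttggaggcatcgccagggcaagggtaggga
None of the windows shown overlapped an annotated exon. The first 25 bases after the start were found in 1 GENCODE transcript of the gene for *Ldha* window 2, *Pdk1* window 1 and *Pdk2* window 1, and in 0 for *Ldha* window 1 and *Pdk2* window 2. Window 1 of *Ldha* held 3 such cores, at 145, 48 and 34 bases before the start, a number reached in 4.65% of all 32851 windows. The cores at 145 and 48 bases lay within E-boxes, and 0.429% of windows held 2 or more E-boxes. The windows of *Pdk3* (4 cores) and *Pdha1* (3 cores), not shown, also reached 3 cores, and neither gene passed the thresholds of the test below. Window 2 of *Ldha* held 1 core, at 59 bases, and 0 E-boxes. *Pdk1* held 1 core in window 1, at 78 bases, and 0 in window 2. *Pdk2* held 0 cores and 0 E-boxes in window 1 and 1 core within an E-box in window 2, at 126 bases. The motifs of *Ldha* and *Pdk2* thus depended on the start taken. The E-boxes lay in the windows with 0 matched transcripts, but this exact match also fails where an annotated transcript starts slightly downstream. Window 2 of *Pdk2* (95041372 to 95041621, minus strand) lay just before the 5' end of the gene in GENCODE (95041354). The 0 matches therefore do not show that its start lacks an annotated transcript nearby. At least 1 window of each of the 10 genes held the core (11 of 14 windows), beside 41.5% of all 27025 genes and 38.6% of all windows. These shares were not matched for base composition. Windows of the 10 genes with the core had 54.4 to 73.6% G and C, and those without it 38.4 to 65.6%. The E-box was in 2 of 14 windows (6.02% of all windows), and AAGGTCA, a site of estrogen-related receptors, was in 0 of 14 (4.08%). The core thus occurred both in genes that rose and in genes whose difference did not pass the test, and a match describes letters, not binding.

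Which of these genes differed between mutant and WT hearts was asked first. *Pdk1* and *Ldha* were higher in *Smyd1-KO* hearts, and the other 8 genes did not pass the thresholds of an adjusted *P* under 0.05 together with a log2 fold change of 0.5 or more in size. Over all tested genes, 2.86% were called higher, 1.42% were called lower and 4.28% were called in either direction, so 2 of 10 called higher and 0 of 10 called lower are to be read against those shares. DESeq2 called the same 2 genes, with 9.29% of its genes called. An unadjusted *P* under 0.05 in edgeR was reached by 3 of the 10 (*Ldha*, *Pdk1* and *Pdk3*, all higher), against 25.1% of all tested genes. The 10 log2 fold changes had a median of 0.13, against -0.00 over all tested genes. Of the 10, 8 were positive, against 9641 of the 19372 tested genes. This lean depended on single hearts, since leaving out 1 heart gave 5 to 9 positive and medians from -0.02 to 0.27. The mutant and WT values did not overlap for *Ldha* and *Pdk1* (2 of 10, against 31.3% of all tested genes). The plot of CPM by heart shows the separation of both genes and the overlap of the rest.

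**Figure D1:**
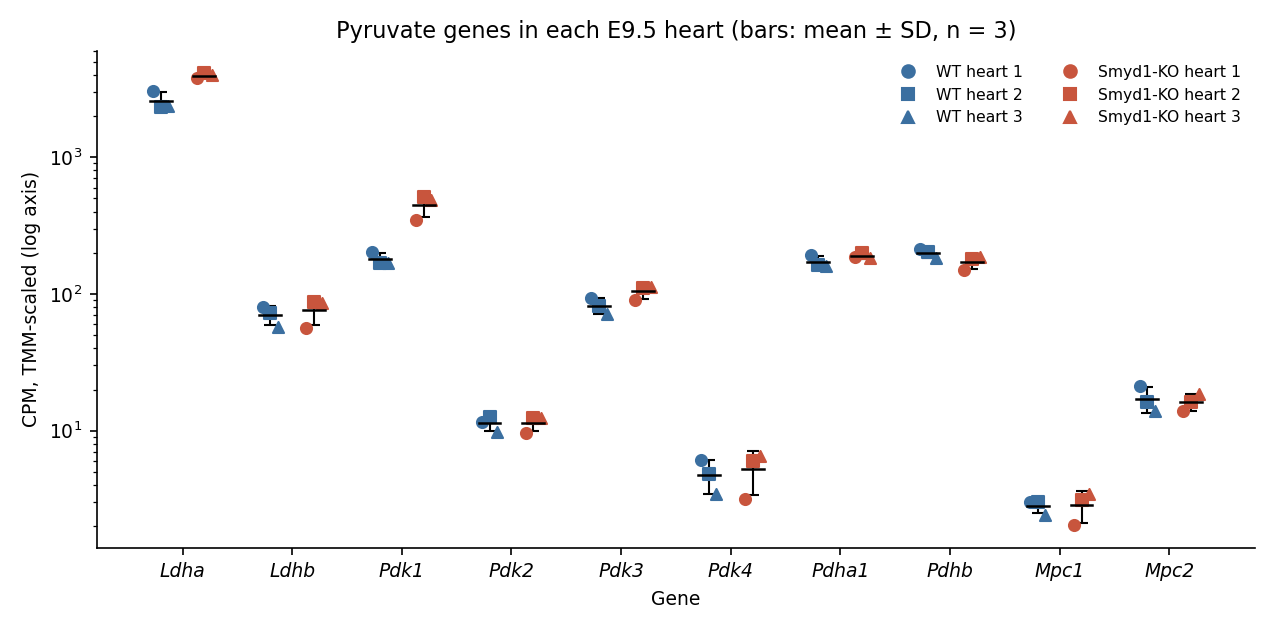
Expression of the 10 genes in each heart, in CPM on a log axis; each point is 1 heart (blue WT, red *Smyd1-KO*), and the black lines are the mean ± SD of 3 hearts. The *Pdk1* values of the mutant hearts (350 to 511 CPM) lie above those of the WT hearts (167 to 203 CPM), as do those of *Ldha*, and the values of the other genes overlap.

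*Ldha* encodes the muscle-type (M) subunit of lactate dehydrogenase, which prevails in glycolytic tissue. It lies on chromosome 7 (46841475 to 46855627, plus strand, GRCm38). It had 3792, 4097 and 3970 CPM in *Smyd1-KO* hearts 1 to 3 and 3058, 2313 and 2351 CPM in WT hearts 1 to 3. The lowest mutant heart was above the highest WT heart, which was WT heart 1. The log2 fold change was 0.62 (SE 0.133, 95% interval 0.31 to 0.93), or 1.54-fold, with an adjusted *P* of 0.0439 in edgeR. The call rested on single hearts: it was lost without *Smyd1-KO* heart 2 (0.59, adjusted *P* = 0.150 in edgeR), *Smyd1-KO* heart 3 (0.62, adjusted *P* = 0.105), WT heart 2 (0.55, adjusted *P* = 0.184) or WT heart 3 (0.56, adjusted *P* = 0.168).

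*Ldhb* encodes the heart-type (H) subunit, which prevails in oxidative tissue such as adult heart. It had 56.4, 87.4 and 86.6 CPM in the *Smyd1-KO* hearts and 79.7, 72.9 and 57.7 CPM in the WT hearts. The groups overlapped, with the 2 lowest values in *Smyd1-KO* heart 1 and WT heart 3. The log2 fold change was 0.13 (95% interval -0.32 to 0.58, adjusted *P* = 0.710 in edgeR), so neither a modest rise nor a modest fall could be told from the spread. A pseudogene, *Gm5514*, shared 12.6% of the 75-base stretches of *Ldhb* transcripts, but had 241 counts in all 6 hearts against 26071 for *Ldhb*.

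Per transcript length (TPM), *Ldha* was the most abundant of the 10 genes in both genotypes. It had 4059 ± 96.1 TPM in *Smyd1-KO* and 2722 ± 310 TPM in WT (SD, n = 3), and its TPM rank among all genes was 12 to 14 in mutant hearts and 17 to 23 in WT hearts. *Ldhb* had 166 ± 36.0 and 156 ± 17.7 TPM. *Ldha* thus made up 96.1 ± 0.758% of the summed TPM of both genes in *Smyd1-KO* and 94.5 ± 0.692% in WT (SD, n = 3). Within each heart, the log2 ratio of *Ldha* to *Ldhb* per exonic base was 0.51 higher in *Smyd1-KO* (SE 0.210). The ratios did not overlap, and the two-sided exact permutation test gave *P* = 0.1 (0.117 adjusted over 7 ratios), where 0.1 is the smallest value that 3 against 3 hearts allow.

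The PDH kinases came next. PDK1 is the kinase known as a target of hypoxia signaling, and it phosphorylates the PDH complex and slows pyruvate oxidation. Its gene lies on chromosome 2 (71873224 to 71903858, plus strand) and shared no 75-base stretch with another gene. *Pdk1* had 350, 511 and 489 CPM in *Smyd1-KO* hearts 1 to 3 and 203, 167 and 168 CPM in WT hearts 1 to 3. The lowest mutant heart, heart 1, was above every WT heart. The log2 fold change was 1.33 (SE 0.163, 95% interval 0.94 to 1.71), or 2.51-fold, with an adjusted *P* of 0.00891 in edgeR. It ran from 1.23 to 1.48 when any 1 heart was left out, but the call was lost without WT heart 2 (1.28, adjusted *P* = 0.0695 in edgeR) or WT heart 3 (1.28, adjusted *P* = 0.0589).

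None of the other kinase genes passed the thresholds. *Pdk3*, an X-linked kinase gene, had 90.0, 111 and 113 CPM in *Smyd1-KO* and 92.8, 82.3 and 71.7 CPM in WT. Only the lowest mutant heart and the highest WT heart, both replicate 1 and both male, crossed. Its log2 fold change was 0.35 (SE 0.128, 95% interval 0.05 to 0.65) with an unadjusted *P* of 0.0282 and an adjusted *P* of 0.147 in edgeR. *Pdk2*, the most widely expressed isoform, had 9.67, 12.3 and 12.4 CPM in *Smyd1-KO* and 11.5, 12.5 and 9.87 CPM in WT. These ranges nearly coincided, and the log2 fold change was 0.02 (95% interval -0.35 to 0.39, adjusted *P* = 0.948 in edgeR). *Pdk4*, the isoform induced by fasting and fatty acids, had 3.15, 6.06 and 6.52 CPM in *Smyd1-KO* and 6.09, 4.80 and 3.44 CPM in WT. The spread within each genotype was wider than the difference between them, with a log2 fold change of 0.13 (95% interval -0.63 to 0.90, adjusted *P* = 0.833 in edgeR).

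The make-up of the kinase family differed between genotypes with little scatter. In WT hearts *Pdk3* gave 53.4 ± 1.16% and *Pdk1* 38.4 ± 1.85% of the summed TPM of the 4 kinase genes, while in *Smyd1-KO* hearts *Pdk1* gave 55.5 ± 1.90% and *Pdk3* 39.6 ± 2.02% (SD, n = 3). In TPM, *Pdk3* led in every WT heart and *Pdk1* in every *Smyd1-KO* heart. Which gene led depended on the exonic lengths, 7779 bases for *Pdk1* and 2561 bases for *Pdk3*. Before division by length, *Pdk1* was above *Pdk3* in every heart of both genotypes (in WT 203, 167 and 168 CPM against 92.8, 82.3 and 71.7 CPM). *Pdk2* gave 3.50 ± 0.119% in *Smyd1-KO* and 5.97 ± 0.674% in WT, and *Pdk4* 1.40 ± 0.301% and 2.24 ± 0.376%. Shares of a sum move together, so the lower shares of *Pdk2*, *Pdk3* and *Pdk4* do not show that their RNA was lower.

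**Figure D2:**
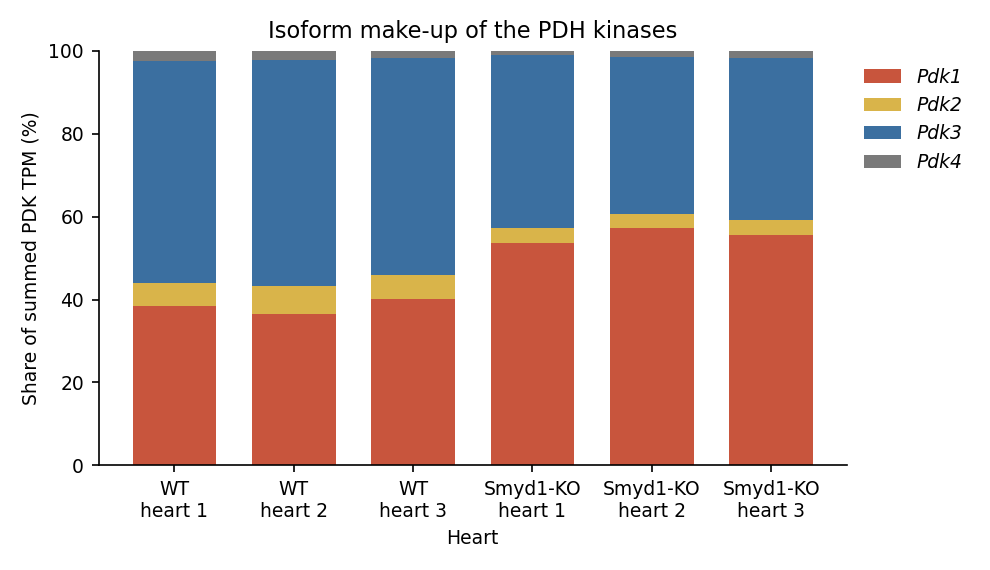
Share of each PDH kinase gene in the summed TPM of the 4 genes (percent), 1 stacked bar per heart. *Pdk1* takes 36.5 to 40.2% in the 3 WT hearts and 53.5 to 57.3% in the 3 *Smyd1-KO* hearts.

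Ratios within a heart do not depend on the scaling between libraries. The log2 ratio of *Pdk1* was 1.29 higher in *Smyd1-KO* against *Pdk2* (SE 0.137), 0.96 higher against *Pdk3* (SE 0.0917) and 1.21 higher against *Pdk4* (SE 0.242). All 3 sets of ratios were separate between the genotypes. Each gave *P* = 0.1 in the exact permutation test, the smallest possible value (0.117 adjusted over 7 ratios). All 3 use the same *Pdk1* values, so they are not independent of each other or of the rise of *Pdk1*.

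The PDH phosphatases *Pdp1* and *Pdp2* oppose the kinases. *Pdpr* encodes a regulatory subunit of the phosphatase and is not itself a phosphatase, so a sum with *Pdpr* is not one of phosphatases alone. Of these 3 genes, 0 passed the thresholds, against 4.28% of all tested genes. *Pdp1* had a log2 fold change of 0.39 (adjusted *P* = 0.262 in edgeR), *Pdp2* of -0.00 (adjusted *P* = 0.999) and *Pdpr* of -0.08 (adjusted *P* = 0.594). The log2 ratio of the summed kinase genes to the sum of these 3 genes, per exonic base, was 2.82, 3.11 and 2.98 in *Smyd1-KO* hearts 1 to 3. It was 2.45, 2.16 and 2.07 in WT hearts 1 to 3. The difference of 0.75 (SE 0.142) had *P* = 0.1 in the exact permutation test, and every mutant heart lay above every WT heart. Of the summed TPM of all these genes in WT, *Pdpr* made up 8.93%, *Pdp1* 3.19% and *Pdp2* 5.55%. *Pdk1* alone made up 49.2% of that sum in *Smyd1-KO* and 31.6% in WT. This ratio is therefore not independent of the rise of *Pdk1* or of the other *Pdk1* ratios. These are ratios of RNA, and neither kinase activity nor phosphorylation of PDH was measured.

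**Figure D3:**
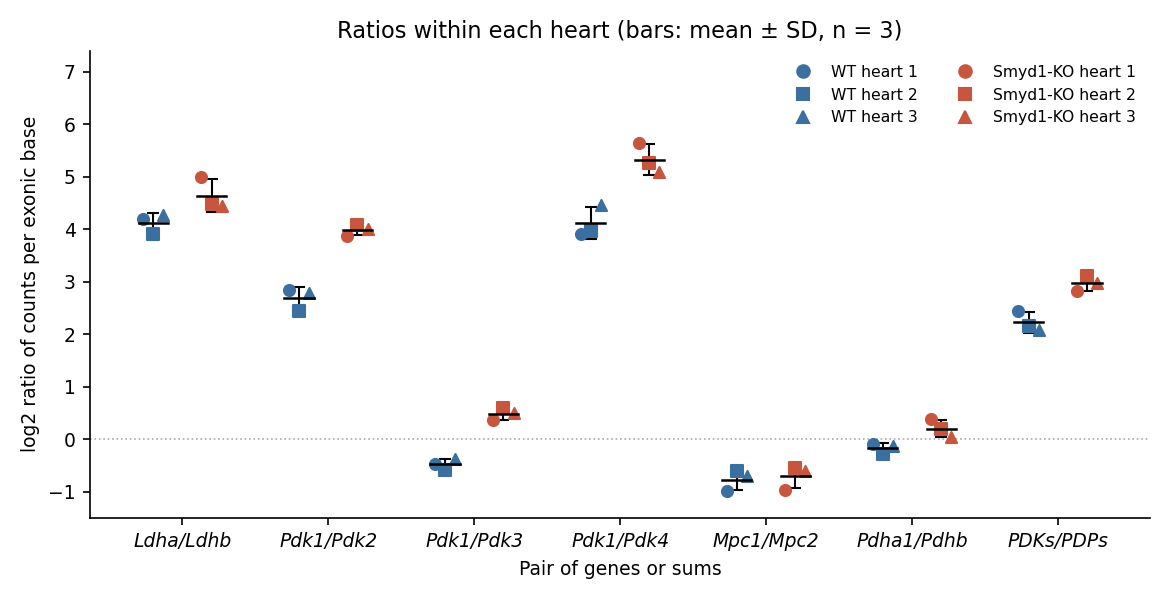
Log2 ratios of counts per exonic base within each heart, for 6 pairs of genes and for summed kinase genes (PDKs) against summed phosphatase genes (PDPs: *Pdp1*, *Pdp2*, *Pdpr*); points are hearts and black lines the mean ± SD of 3 hearts. The genotypes separate in every ratio but that of *Mpc1* to *Mpc2*, where the values overlap.

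*Pdha1* and *Pdhb* encode the alpha and beta subunits of the E1 enzyme, the decarboxylating part of the PDH complex. *Pdha1*, on the X chromosome, had 186, 198 and 183 CPM in *Smyd1-KO* and 193, 162 and 160 CPM in WT. *Pdhb* had 149, 179 and 185 CPM in *Smyd1-KO* and 213, 204 and 182 CPM in WT. The values of both genes overlapped between genotypes, for *Pdhb* only through *Smyd1-KO* heart 3 and WT heart 3. The log2 fold change of *Pdha1* was 0.14 (SE 0.0982, 95% interval -0.09 to 0.37, adjusted *P* = 0.411 in edgeR). That of *Pdhb* was -0.23 (SE 0.111, 95% interval -0.49 to 0.04, adjusted *P* = 0.258 in edgeR). The subunits are built into the complex in equal numbers. Per exonic base, the log2 ratio of *Pdha1* to *Pdhb* was 0.37, 0.20 and 0.04 in the *Smyd1-KO* hearts and -0.10, -0.28 and -0.14 in the WT hearts. This ratio differed by 0.37 (SE 0.113, exact permutation *P* = 0.1, 0.117 adjusted over 7 ratios). Where 0 falls depends on the exonic lengths used (3734 and 3861 bases), so the sign in a heart does not show which subunit had more RNA. *Pdha1* shared 603 exonic bases, 16.1% of its exonic length, with *Map3k15* on the opposite strand, and without a stated strand setting their reads there cannot be told apart. *Map3k15* had 2163 counts in all hearts against 63700 for *Pdha1*.

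The rest of the complex was measured beside them. *Dlat*, the E2 subunit, had a log2 fold change of -0.13 (adjusted *P* = 0.634 in edgeR), and *Dld*, the E3 subunit that other dehydrogenases share, had -0.12 (adjusted *P* = 0.497). *Pdhx*, which anchors E3 to the core, had 27.3, 32.0 and 26.2 CPM in *Smyd1-KO* and 40.7, 37.6 and 34.1 CPM in WT. Its groups did not overlap, but at -0.39 (SE 0.113) its adjusted *P* of 0.0879 in edgeR missed the threshold.

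*Mpc1* and *Mpc2* encode the 2 subunits of the carrier through which pyruvate crosses the inner mitochondrial membrane. *Mpc1* was among the least abundant of the 10 genes, with 2.04, 3.11 and 3.45 CPM in *Smyd1-KO* and 3.00, 2.99 and 2.43 CPM in WT. *Mpc2* had 14.0, 16.1 and 18.6 CPM in *Smyd1-KO* and 21.1, 16.1 and 14.0 CPM in WT. The values of both genes overlapped between genotypes. The log2 fold change of *Mpc1* was 0.03 (95% interval -0.54 to 0.60, adjusted *P* = 0.953 in edgeR) and that of *Mpc2* was -0.07 (95% interval -0.50 to 0.36, adjusted *P* = 0.840 in edgeR). The ratio of *Mpc1* to *Mpc2* differed by 0.06 on the log2 scale (SE 0.173, exact permutation *P* = 0.6). *Mpc1* rested on 99 to 197 counts per heart, and 21.3% of its 75-base stretches also occurred in an antisense transcript, *4930506C21Rik*, or a pseudogene, *Mpc1-ps*, so its level is uncertain.

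The order of levels, in mean TPM, differed between the genotypes. In WT hearts it was *Ldha* (2722), *Pdhb* (182), *Pdha1* (161), *Ldhb* (156), *Pdk3* (113), *Pdk1* (80.8), *Pdk2* (12.5), *Mpc2* (8.12), *Pdk4* (4.74) and *Mpc1* (4.73). *Pdha1* and *Ldhb*, and *Pdk4* and *Mpc1*, overlapped across WT hearts, and the other neighbours did not. In *Smyd1-KO* hearts *Pdk1* (196 TPM) stood second after *Ldha*, from sixth in WT, and *Pdhb* (150 TPM) stood below *Pdha1* (172 TPM) and *Ldhb* (166 TPM), but the hearts of each neighbouring pair from *Pdk1* through *Pdha1*, *Ldhb* and *Pdhb* to *Pdk3* overlapped. Per length, the RNA of *Pdk1* overlapped that of its substrate subunit in *Smyd1-KO* (*Pdk1* 156 to 221 TPM, *Pdha1* 166 to 178 TPM). In WT *Pdk1* was at 76.0 to 86.7 TPM and *Pdha1* at 153 to 172 TPM. The order within a genotype depends on the exonic lengths, which cover all annotated transcripts (7779 bases for *Pdk1*, 3734 for *Pdha1*). Before division by length, *Pdk1* (167 to 203 CPM) and *Pdha1* (160 to 193 CPM) overlapped in WT. In *Smyd1-KO*, *Pdk1* (350 to 511 CPM) was then above *Pdha1* (183 to 198 CPM). In WT mean CPM, *Pdk1* (179) was above *Pdha1* (172), *Pdk3* (82.3) and *Ldhb* (70.1), and below *Pdhb* (200).

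Other enzymes and carriers that handle pyruvate were read from 7 lists, of which 31 of 33 genes were tested. Of these, 4 were called higher and 1 lower, against 2.86% and 1.42% of all tested genes, and their median log2 fold change was 0.01. *Gpt2*, the mitochondrial alanine transaminase that interconverts pyruvate and alanine, had 54.9, 66.1 and 69.9 CPM in *Smyd1-KO* and 21.0, 25.1 and 26.7 CPM in WT. *Pcx*, pyruvate carboxylase, which makes oxaloacetate from pyruvate, had 72.6, 84.7 and 85.7 CPM in *Smyd1-KO* and 38.9, 43.2 and 39.4 CPM in WT. Every mutant heart was above every WT heart for both genes. Their log2 fold changes were 1.39 (SE 0.130, adjusted *P* = 0.00378 in edgeR) and 1.0 (SE 0.0930, adjusted *P* = 0.00365), and both were called whichever heart was left out.

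Lactate export genes were also among those called. *Slc16a3*, the lactate exporter MCT4, had a log2 fold change of 0.85 (SE 0.135, adjusted *P* = 0.0192 in edgeR), and *Bsg*, basigin, its partner at the membrane, had 1.02 (SE 0.188, adjusted *P* = 0.0292). Each lost its call without any 1 of *Smyd1-KO* hearts 2 and 3 and WT hearts 2 and 3, at 0.77 to 0.96 for *Slc16a3* and 0.89 to 1.18 for *Bsg* over all 6 hearts left out. *Slc16a1*, the carrier MCT1, had 0.20 (adjusted *P* = 0.290 in edgeR). *Ogdh*, the E1 enzyme of the related 2-oxoglutarate dehydrogenase, was called lower at -0.55 (SE 0.120, adjusted *P* = 0.0468 in edgeR), and this call was lost whichever heart was left out (-0.63 to -0.46). None of the 5 genes of lipoate and thiamine supply was called, against 4.28% of all tested genes. *Ldhc* (-0.99, adjusted *P* = 0.275 in edgeR) and *Ldhd* (0.06, adjusted *P* = 0.943), the tested genes for further lactate dehydrogenases, were not called either. The plot of fold changes sets these genes beside the 10.

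**Figure D4:**
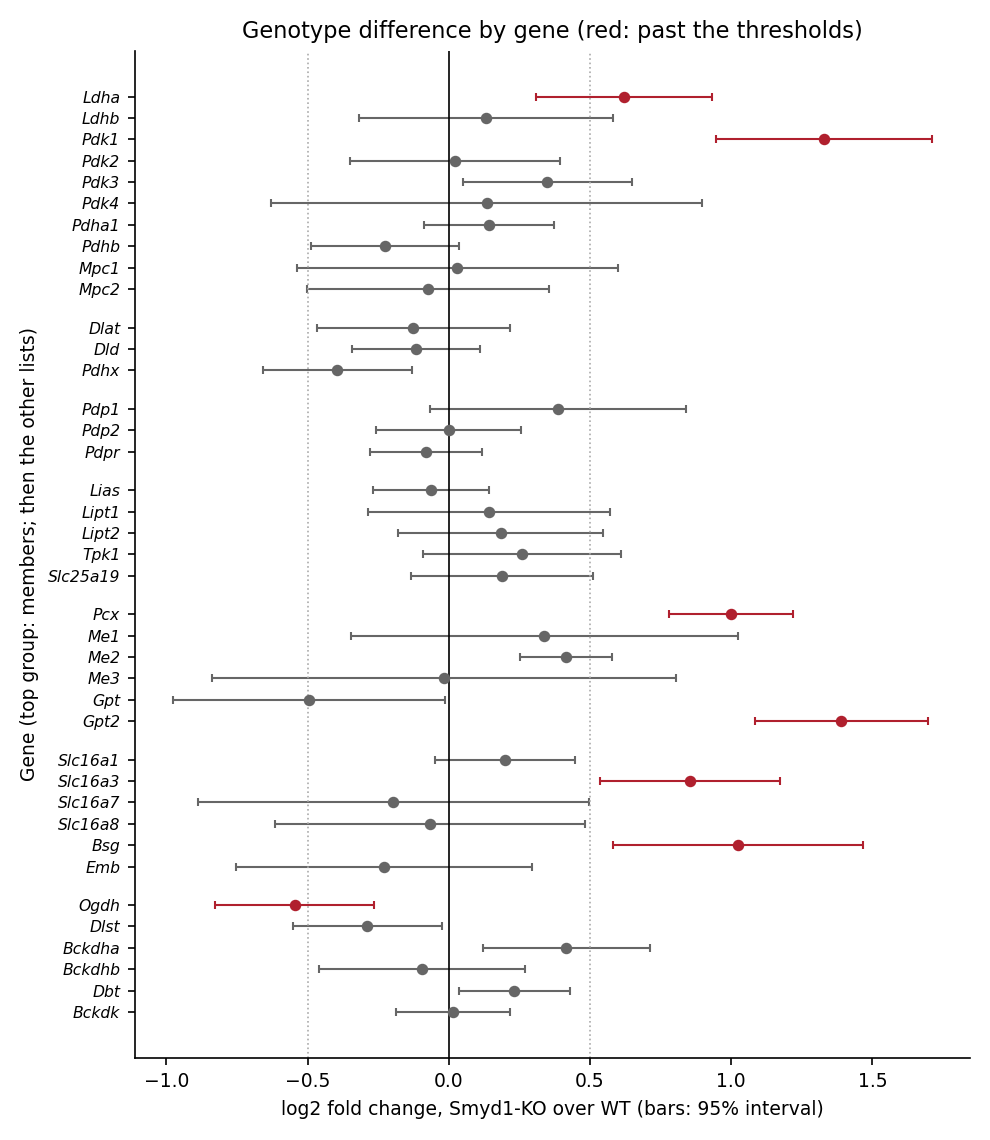
Log2 fold change of *Smyd1-KO* over WT with its 95% interval, for the 10 genes (top group) and then the tested genes of 6 further lists on PDH subunits, PDH phosphatases, cofactor supply, other pyruvate enzymes, membrane carriers and related dehydrogenases; dotted lines mark the fold limit of 0.5 and red the genes past both thresholds. *Ldha*, *Pdk1*, *Pcx*, *Gpt2*, *Slc16a3* and *Bsg* are red to the right of 0 and *Ogdh* is red to the left.

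Of the pathways on either side, glycolysis had 10 of 13 genes called higher, against 2.86% of all tested genes, and a median log2 fold change of 0.70. The called genes were *Gpi1*, *Pfkl*, *Pfkp*, *Aldoa*, *Aldoc*, *Tpi1*, *Gapdh*, *Pgk1*, *Pgam1* and *Pkm*, from 0.55 for *Pgam1* to 2.06 for *Aldoc*. This count fell to 3 without *Smyd1-KO* heart 2, to 5 without *Smyd1-KO* heart 3, and to 1 (*Aldoc*) without WT heart 2 or WT heart 3, while the median log2 fold change stayed between 0.66 and 0.80. The fold change of *Ldha* (0.62) was close in size to those of *Pkm* (0.63) and *Gapdh* (0.62), and that of *Pdk1* (1.33) was larger than that of *Pgk1* (1.13), without a test of either difference. Of the tricarboxylic acid cycle enzymes, 0 of 15 were called, with a median of -0.05 and 1 gene at an unadjusted *P* under 0.05 in edgeR. DESeq2 called 0 as well. With 4.28% of all tested genes called in edgeR and 9.29% in DESeq2, 0 of 15 does not set these enzymes apart.

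Cardiomyocyte marker content differed among hearts of the same genotype and moved with several of the 10 genes. *Ldhb*, *Pdk2*, *Pdk3*, *Pdk4*, *Pdhb*, *Mpc1* and *Mpc2* were lowest in *Smyd1-KO* heart 1 within the mutants and in WT heart 3 within the WT, the hearts with the fewest cardiomyocyte marker counts (8429 and 10921 summed CPM). This held for 7 of the 10 genes and for 21.4% of all tested genes, and was noticed after the values were seen. *Ldha* and *Pdk1* were lowest in *Smyd1-KO* heart 1 too, but in WT heart 2 rather than WT heart 3. Fewer cardiomyocytes and less RNA of a gene per cardiomyocyte cannot be told apart in whole hearts.

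Both rises were also fitted with these hearts left out and with the summed cardiomyocyte markers as a covariate, alternatives that were chosen after seeing the data. Single markers in the sum moved in different directions between genotypes, so the covariate may carry more than cardiomyocyte content. Without *Smyd1-KO* heart 1 and WT heart 3, the log2 fold change of *Pdk1* was 1.43 (adjusted *P* = 0.0120 in edgeR) and that of *Ldha* was 0.59 (adjusted *P* = 0.133), which is no longer a call, so 1 of the 10 genes was called, against 3.13% of all genes in that fit. With the covariate, under which 2 of the 10 and 8.40% of all genes were called, *Pdk1* was at 1.37 (SE 0.0949, adjusted *P* = 0.000812 in edgeR) and *Ldha* at 0.65 (SE 0.120, adjusted *P* = 0.0187). *Pdk3* (0.40, adjusted *P* = 0.0115 in edgeR) and *Ldhb* (0.20, adjusted *P* = 0.0475) then passed the limit on *P* but not the fold limit. Erythroid markers (2 of 9 called lower) and epicardial markers (141 to 266 CPM in *Smyd1-KO*, 106 to 129 CPM in WT, 0 of 6 called) were also separate between the genotypes, whereas the sums of endothelial (607 to 949 and 559 to 663 CPM), fibroblast (586 to 3080 and 436 to 652 CPM, 0 of 5 called) and macrophage markers (4.44 to 5.55 and 5.47 to 8.16 CPM, 0 of 4 called) overlapped. Of the endothelial markers, 1 of 8 was called, *Flt1*, which was higher at 1.15 (adjusted *P* = 0.0192 in edgeR) and did not overlap. *Kdr* at 0.70 (adjusted *P* = 0.0569 in edgeR) did not overlap either. *Npr3* at -0.52 (adjusted *P* = 0.0567 in edgeR) and *Nfatc1* at -0.83 (adjusted *P* = 0.0687) went the other way, also without overlap. Of the 8 log2 fold changes of this list, 5 were positive and 3 negative. Over all tested genes, 2.86% were called higher, 1.42% were called lower and 31.3% did not overlap. The part of these markers in the rises of *Pdk1* and *Ldha* was not tested.

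**Figure D5:**
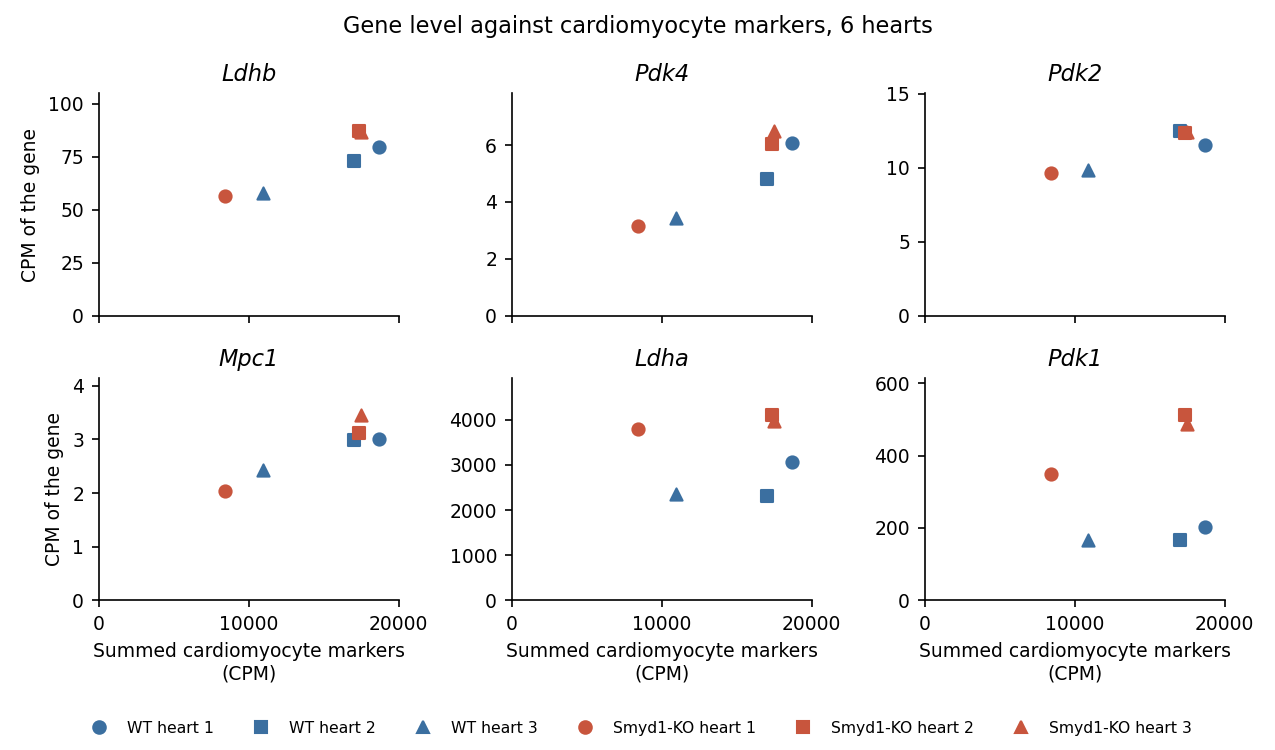
CPM of 6 of the genes against the summed CPM of 10 cardiomyocyte markers, 1 point per heart. For *Ldhb*, *Pdk4*, *Pdk2* and *Mpc1*, *Smyd1-KO* heart 1 and WT heart 3 are lowest on both axes. This did not hold for *Pdk3* and *Pdhb*, which are not plotted. WT heart 2 (82.3 CPM) was below *Smyd1-KO* heart 1 (90.0 CPM) for *Pdk3*, and *Smyd1-KO* heart 2 (179 CPM) below WT heart 3 (182 CPM) for *Pdhb*. For *Ldha* and *Pdk1* the red mutant points lie above the blue WT points at low and at high marker levels.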

How the data were processed

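The authors selected poly A RNA, sequenced paired ends and aligned them to mm10 with STAR. The counting tool, annotation release and strand setting are not given in the sources used here. The deposited raw table holds read counts per gene for 6 heart samples, 3 per genotype, grouped by the labels. The deposited normalized table holds a signal, the counts divided by 1 DESeq2 size factor per heart (0.830 to 1.14), and was used only to check this.

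Counts were fitted in R 4.3.3 with edgeR 4.0.16 (filterByExpr, TMM, quasi-likelihood test, no covariates) over 19372 genes with Benjamini-Hochberg adjustment. CPM carry the TMM factors. TPM and ratios used exonic lengths of GENCODE's GRCm38 annotation, in which 54409 genes were found. *Aldoa* has several rows, of which the one with the most counts was used. DESeq2 1.42.0, other scalings and filters, a replicate block and leaving out each heart were alternatives. The fit was tested on simulated data. Motifs were searched in RefSeq promoter windows of GRCm38.p6, where all 10 genes were matched. The genes and lists were chosen with earlier results of these data known. From the lists, genes past the thresholds are named, with others needed to describe the counts, such as the largest changes. *P*-values measure the spread between heart samples, whose number of hearts per library is not stated. No molecular identifiers are named, so counting error is a lower limit of the error.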

Additional observations from a re-analysis of the deposited data

How the results depend on the processing

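With another scaling (RLE, upper quartile, or without mitochondrial and haemoglobin genes), a filter of at least 10 counts in every heart, no filter, or DESeq2, 2 of the 10 pyruvate genes were called, as before; these scalings moved the median of all genes by less than 0.01. Leaving out 1 heart gave 0 to 2 of the 10 called, 2 to 4 of the other pyruvate genes (5 with all hearts), and 1 to 10 of the glycolysis and tricarboxylic acid cycle genes (10 with all hearts), with the fewest calls over all genes without WT heart 2 (97 against 830). Small differences changed sign on leaving out a heart: *Pdk2* ran from -0.064 to 0.13, *Pdk4* from -0.053 to 0.40, *Mpc1* from -0.12 to 0.23, *Mpc2* from -0.19 to 0.12, and the log2 ratio of *Mpc1* to *Mpc2* from -0.051 to 0.19. Leaving out both hearts with the fewest cardiomyocyte markers gave 1 of the 10 (against 3.13% of all genes) and 4 of the glycolysis and cycle genes called, with fewer hearts tested. *Smyd1* passed the thresholds with DESeq2 (-1.0), without both those hearts (-0.89) and with the cardiomyocyte covariate (-0.92). DESeq2 called 1749 genes and the covariate 1627; the cause was not tested.

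Mutant and WT hearts come from different embryos, and the labels do not say whether same-numbered hearts shared a litter or batch. Deviations of same-numbered hearts from their genotype means correlated at -0.22, -0.05 and -0.18. With 3 hearts per genotype these correlations cannot decide whether the numbers pair the hearts. By sex the numbers did match, since heart 1 was male and hearts 2 and 3 were female in both genotypes. With the replicate number as a block, 59 genes (0.305%) were called in all, 0 of the 10, 2 of the other pyruvate genes and 0 of the glycolysis and cycle genes. *Pdk1* was then at 1.32 (adjusted *P* = 0.0950 in edgeR) and *Ldha* at 0.63 (adjusted *P* = 0.152). *Mpc1* (99 to 197) and *Pdk4* (153 to 372) had the fewest counts per heart, which limits what could be seen for them.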

Other observations

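The amount of Y-linked RNA differed between the 2 male hearts. *Kdm5d* had 10.7 CPM of total counts in *Smyd1-KO* heart 1 and 37.8 in WT heart 1, and *Eif2s3y* had 11.6 and 53.4, while *Xist* was equally low in both (2.76 and 2.77). *Pdha1* and *Pdk3*, the X-linked genes of the pyruvate branch, were at 186 and 193 CPM and at 90.0 and 92.8 CPM in these hearts.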
